A study of Mus musculus with 6 samples.

Results

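Aldehyde dehydrogenases (ALDH) are encoded by a family of genes, and 10 of its members were followed here in mouse 4T1 mammary carcinoma cells: Aldh1a1, Aldh1a2, Aldh1a3, Aldh1b1, Aldh2, Aldh3a1, Aldh3a2, Aldh3b1, Aldh7a1 and Aldh9a1. They were chosen by gene symbol, with earlier results of these data known, and they are 10 of the 19933 genes that could be named and tested. Another 11 ALDH genes were measured and are given beside them. Each of the 10 had 1 probe set, a group of array probes that is summarised as 1 value.

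Aldehyde dehydrogenases oxidise aldehydes to carboxylic acids with NAD+ or NADP+ as the electron acceptor. The cytosolic ALDH1A enzymes make retinoic acid from retinal, the ALDH3 enzymes act mainly on medium-chain and long-chain aldehydes such as those released by lipid peroxidation, and several mitochondrial members work in alcohol, amino acid and folate metabolism. High ALDH activity, read with a fluorescent substrate, is widely used to sort stem-like cells from mammary tumors, and the activity is most often ascribed to ALDH1A1 and ALDH1A3.

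The arrays measured 2 groups, untreated parental 4T1 cells (WTR-, 3 arrays) and MR13 cells (3 arrays). 4T1 is a carcinoma line from a BALB/c mouse, and MR13 cells descend from 4T1 cells that survived methotrexate (MTX), an inhibitor of dihydrofolate reductase. The labels give MTX at 13 µg/ml for at most 2 weeks, until surviving colonies could be seen. The study's methods state a different concentration and a longer selection, and place the survivors in medium without drug afterwards, and the presence of MTX at RNA extraction is not given in the labels. MR13 is 1 selected line. The extraction label speaks of triplicate wells, and the study calls its replicates biological, so p-values measure the spread between these samples, which may be technical, and not between selections. Values are log2 signals as deposited, a difference is MR13 minus WTR-, and a gene was called at a Benjamini-Hochberg adjusted p under 0.05 in limma's test over all genes.

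Arrays of the same group correlated at 0.9980 to 0.9987 across probe sets and arrays of different groups at 0.984 to 0.987, so no array stood apart from its group. Across all genes 37.6% were called, 17.0% higher and 20.6% lower in MR13, and the median difference was 0.01. The balance of directions depended on scaling, with 3386 genes higher and 4111 lower as deposited and 3940 higher and 3836 lower after a further quantile normalization. Being called was therefore common in this comparison, and 4.06% of genes were called with a change of at least 2-fold. The epithelial keratins Krt8 and Krt18 were among the brightest genes of both groups, with Krt8 at 13.41 in WTR- and 13.53 in MR13 and Krt18 at 12.99 and 12.80. Of 8 epithelial markers, however, 6 fell in MR13 and 1 rose, with a median difference of -2.35. The tight junction gene Cldn4 fell by 5.27, the adhesion genes Epcam and Cdh1 by 4.30 and 3.24, and the keratin genes Krt14, Krt19 and Krt18 differed by -2.47, -2.23 and -0.19, while Krt5 rose by 0.27 and Krt8 was not called. The summed level of the 8, which the bright Krt8 and Krt18 dominate, lay between 14.87 and 14.94 in WTR- arrays and between 14.23 and 14.35 in MR13 arrays on the log2 scale. Of 8 fibroblast markers 2 rose, the receptor gene Pdgfra by 1.82 and the proteoglycan gene Dcn by 1.70, and the summed level went from between 9.70 and 9.80 to between 10.74 and 10.91. Of 7 leukocyte markers 1 rose, the lysosomal gene Cd68 by 0.35, with summed levels of 9.33 to 9.41 and then 9.57 to 9.66, and 4 markers in WTR- and 5 in MR13 lay below the 30th percentile of their arrays. Of 6 endothelial markers limma called 0, and the count at an unadjusted p under 0.05 was 0. The plain t-test, which the study's methods name for comparing 2 groups in general, also called 0. Their summed levels were 7.71 to 7.82 in WTR- and 7.80 to 7.84 in MR13. The part of these marker differences in the results below was not tested.

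Among the 10 members, 3 rose in MR13, 2 fell and 5 did not pass the test. That is 50% called, against 37.6% of all genes. The 3 that rose were the ALDH3 genes Aldh3a1, Aldh3b1 and Aldh3a2, and the 2 that fell were Aldh7a1 and Aldh2. The 3 array values of one group all lay outside those of the other for 6 members, against 47.4% of all genes, and 2 members were called with at least a 2-fold change. The median difference of the 10 was 0.05 and its median size 0.19, beside 0.01 and 0.13 for all genes.

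**Figure D1:**
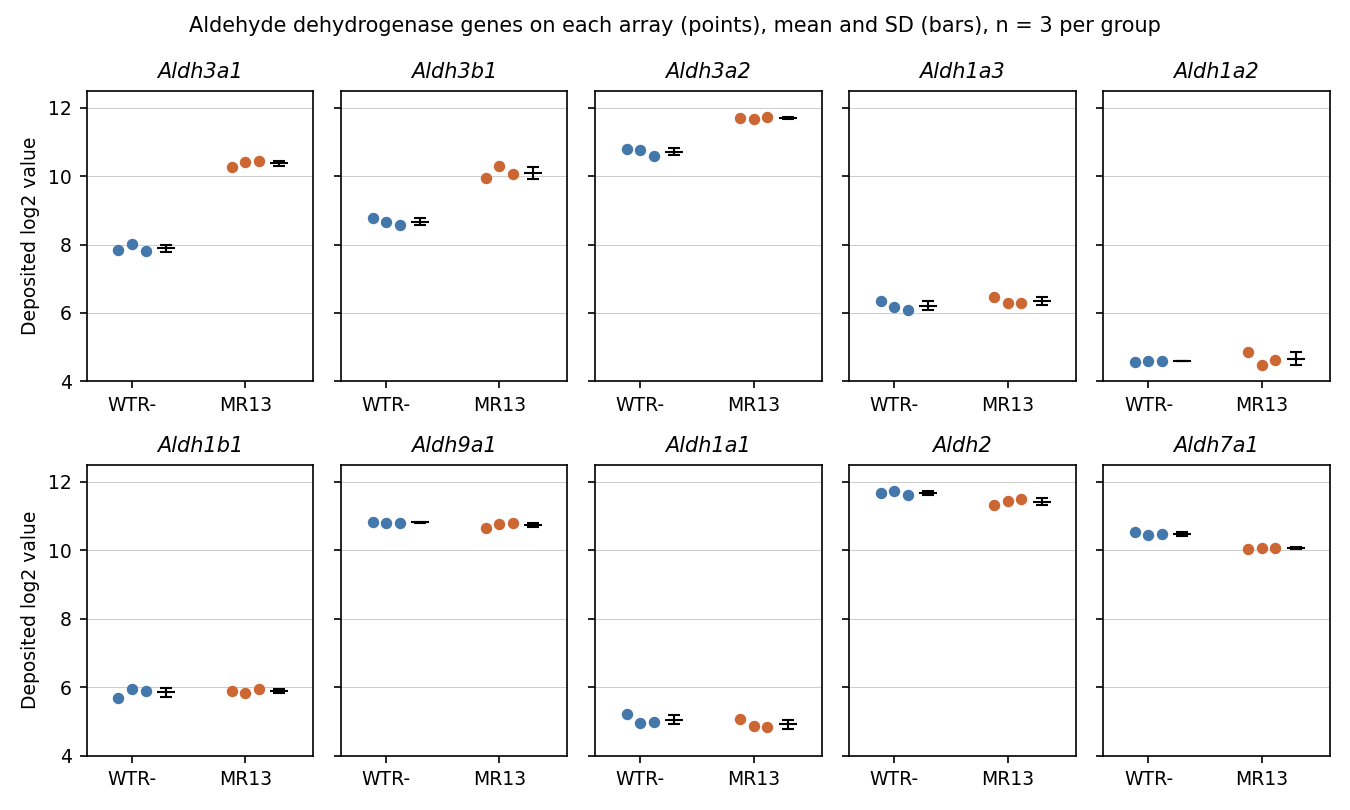
Deposited log2 value (vertical axis) of the 10 aldehyde dehydrogenase genes, with 1 point per array for WTR- and MR13 and, beside the points, the mean and SD of the 3 arrays. The largest separation of these 10 is that of Aldh3a1, at 7.89 in WTR- and 10.37 in MR13, and the ALDH1A genes overlap between groups.

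Aldh3a1 encodes a cytosolic enzyme abundant in cornea and upper airway that oxidises aromatic and medium-chain aldehydes, and it is an inducible gene of the aryl hydrocarbon receptor (AHR) program. Its values were 7.85, 8.001 and 7.82 on the WTR- arrays and 10.28, 10.40 and 10.43 on the MR13 arrays. The groups lay far apart, with no overlap. The mean went from 7.89 ± 0.10 to 10.37 ± 0.08 (SD over the 3 arrays of each group). The difference was 2.48 (SE 0.07, 95% interval 2.32 to 2.63), or 5.57-fold, with an adjusted p of 2.58e-08 by limma. Ordered by rise among all 19933 genes, Aldh3a1 was number 49.

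Aldh3b1 encodes a membrane-attached enzyme active on long-chain lipid aldehydes. Its arrays read 8.76, 8.66 and 8.56 in WTR- and 9.96, 10.29 and 10.05 in MR13, a difference of 1.43 (SE 0.09, interval 1.23 to 1.64, adjusted p = 3.31e-06 by limma). Every MR13 array was above every WTR- array, although MR13 replicate 2 was higher than the other two.

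Aldh3a2 encodes fatty aldehyde dehydrogenase, the enzyme missing in Sjögren-Larsson syndrome. It was already bright in WTR- at 10.79, 10.75 and 10.59, and read 11.69, 11.67 and 11.72 in MR13. The difference was 0.98 (SE 0.06, interval 0.83 to 1.12), 1.97-fold, with an adjusted p of 3.82e-06 by limma. The MR13 arrays were nearly equal and all lay above those of WTR-.

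The ALDH3 family holds 5 measured genes, and 4 of them rose, beside 17.0% of all genes, in a grouping made after the values were seen. The other 2, outside the 10 members, lie in the same cluster as Aldh3b1. Aldh3b3 rose from 9.45, 9.28 and 9.22 to 9.91, 10.20 and 9.91, a difference of 0.69 (SE 0.09, adjusted p = 0.000365 by limma). Aldh3b2 read 6.89 to 6.92 in WTR- and 6.95 to 7.12 in MR13, a difference of 0.12 that did not pass the test (adjusted p = 0.161). Aldh3b2 and Aldh3b3 overlap on the chromosome and their sequences are similar, so the signal of one may contain signal of the other. With the mean of its single-symbol probe sets Aldh3b3 differed by 0.39, and those not used differed by 0.25 and 0.22 with no call. A further probe set that carries both symbols, Aldh3b2 and Aldh3b3, differed by 0.05, also with no call.

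**Figure D2:**
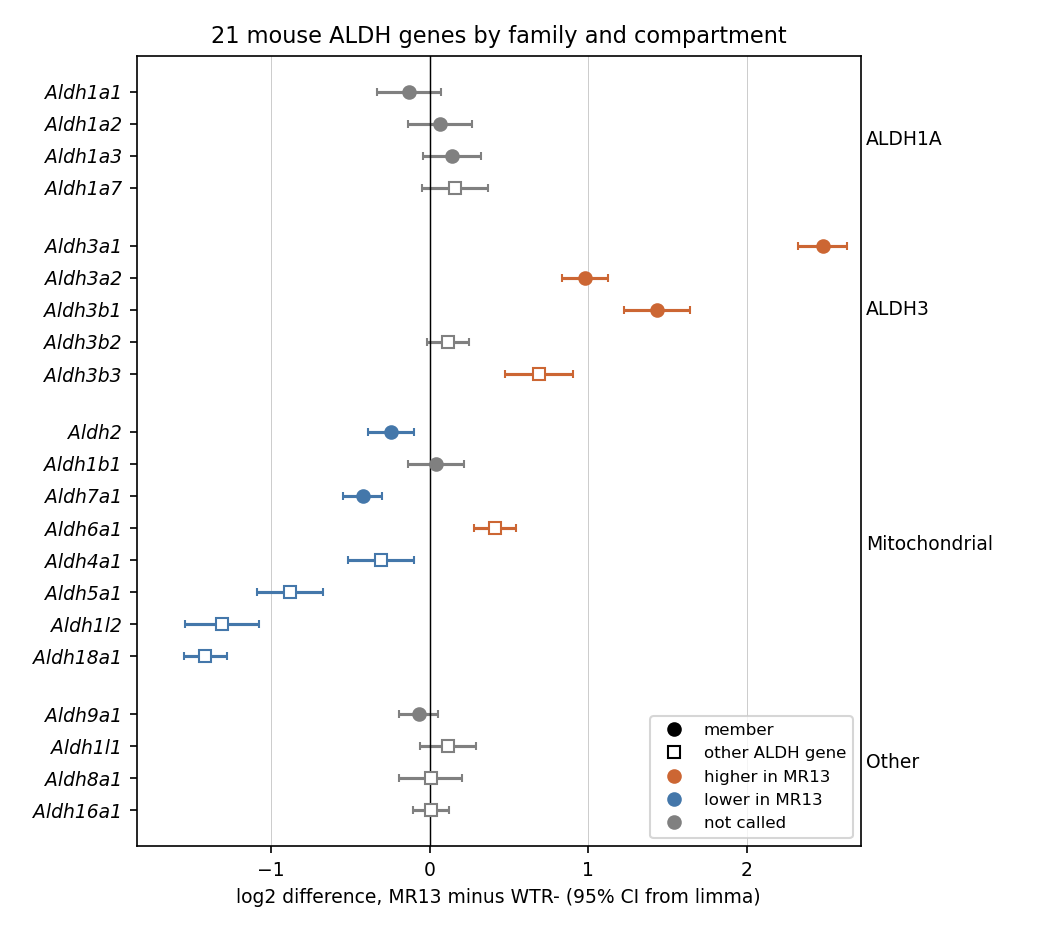
Log2 difference of MR13 minus WTR- for the 21 measured aldehyde dehydrogenase genes, with 95% intervals from limma, filled circles for the 10 members and open squares for the other 11. The 4 called ALDH3 genes stand to the right of zero, the mitochondrial genes Aldh18a1 and Aldh1l2 stand furthest to the left, and the ALDH1A intervals cross zero.

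The 5 ALDH3 genes lie in 2 clusters. In RefSeq assembly GRCm38.p6, Aldh3a1 is at chr11:61208510-61218418 and Aldh3a2 at chr11:61223417-61267528, 4998 bases apart, and the Aldh3b cluster is at chr19:3913491-3981665. The genes beside them were looked at after the member values were known. Of all genes 17.0% rose and 20.6% fell. Among the 5 measured genes on each side of the Aldh3a pair, 2 rose, 2 fell and 6 did not pass the test. Next to them stood Usp22 with a difference of 0.16 (a deubiquitinase, adjusted p = 0.0656) and Slc47a2 with 0.02 (a cation transporter gene). Among 11 neighbours of the Aldh3b cluster 2 rose and 6 fell, and an effect of the region was not tested. Of those that fell, Unc93b1, which encodes a Toll-like receptor chaperone and lies between Aldh3b1 and Aldh3b3, fell by 0.53, and the choline kinase gene Chka fell by 1.08. Of those that rose, Acy3, an aminoacylase gene next to Aldh3b2, rose by 0.86.

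**Figure D3:**
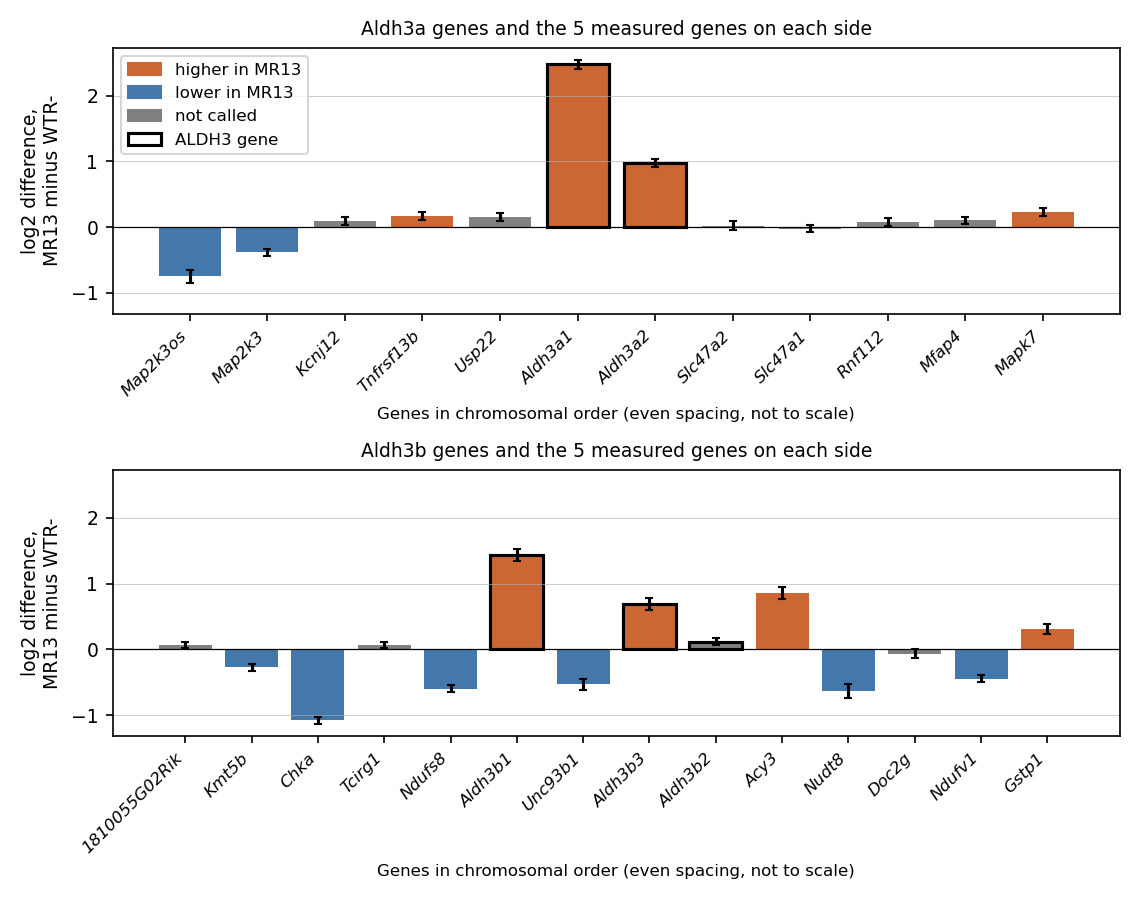
Log2 difference of MR13 minus WTR- for genes in map order, evenly spaced, around the Aldh3a pair and the Aldh3b cluster, as bars with limma's SE. Outlined bars are the ALDH3 genes, and the highest bar among the neighbours is Acy3, at 0.86.

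Upstream windows were looked at, after the member values were known, because Aldh3a1 is a textbook target of AHR, and because AHR and the factor NRF2 share part of their targets. The 250 bases before a listed transcript start were searched on both strands for GCGTG, the core of the AHR response element, and for TGACNNNGC, a core of the antioxidant response element. Windows were searched for 15 of the 21 genes and 6 of the 10 members. None was searched for the members Aldh1a3, Aldh2, Aldh3a1 and Aldh7a1, so nothing is known here of matches before them. Among 32851 RefSeq windows of this length, 28.2% held GCGTG and 10.2% held TGACNNNGC, so a single match is common. The windows of the 3 ALDH3 genes that rose and had one are printed 5′ to 3′ with GCGTG matches in capitals, from chr11:61267187-61267436 minus strand, chr19:3929779-3930028 minus strand and chr19:3958558-3958807 plus strand of GRCm38.p6.
Aldh3a2: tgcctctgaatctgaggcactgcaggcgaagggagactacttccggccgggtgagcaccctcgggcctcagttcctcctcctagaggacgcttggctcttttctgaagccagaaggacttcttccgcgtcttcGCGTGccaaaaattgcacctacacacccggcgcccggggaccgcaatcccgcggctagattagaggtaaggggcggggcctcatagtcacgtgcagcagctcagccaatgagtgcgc
Aldh3b1: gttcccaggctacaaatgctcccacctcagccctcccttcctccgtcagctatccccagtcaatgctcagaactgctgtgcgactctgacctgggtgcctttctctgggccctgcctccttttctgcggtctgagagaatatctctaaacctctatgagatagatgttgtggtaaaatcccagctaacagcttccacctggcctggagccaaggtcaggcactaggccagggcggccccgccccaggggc
Aldh3b3: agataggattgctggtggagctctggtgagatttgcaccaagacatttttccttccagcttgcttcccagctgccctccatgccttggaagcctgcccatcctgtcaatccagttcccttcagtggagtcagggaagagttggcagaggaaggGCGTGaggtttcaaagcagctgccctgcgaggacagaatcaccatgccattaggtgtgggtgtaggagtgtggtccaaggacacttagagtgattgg
Aldh3a2 and Aldh3b3 held 1 GCGTG each, Aldh3b1 held 0, and all 3 held 0 of TGACNNNGC. Matches also stood before genes that fell or did not pass. There were 3 GCGTG before Aldh18a1, 2 before Aldh4a1, 2 before Aldh9a1 and 1 before Aldh1a2. The uncalled Aldh9a1 and Aldh1a2 held 1 TGACNNNGC each as well. These letters say nothing about binding of a factor.

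The AHR program was followed through a list without ALDH genes, of which 9 of 13 were measured. It counts Ahr, Arnt and Nfe2l2, which encode transcription factors, together with target genes, so its counts are not counts of targets. The list median is the value of Arnt. In this list 5 rose and 1 fell, 66.7% called beside 37.6% of all genes, with a median difference of 0.61 beside 0.01. Cyp1b1, a cytochrome P450 that hydroxylates estrogens and polycyclic hydrocarbons, read 8.47, 8.47 and 8.46 in WTR- and 11.37, 11.35 and 11.33 in MR13. Those groups were far apart, with a difference of 2.89 (SE 0.05, adjusted p = 1.89e-09 by limma). Ahr itself, the ligand-activated receptor, rose by 1.35 from 8.81, 8.77 and 8.76 to 10.07, 10.21 and 10.11. Chosen after their values were seen, its partner Arnt rose by 0.61, Nqo1, a quinone reductase shared with the NRF2 program, by 0.85, and Nfe2l2, which encodes NRF2, by 0.73. Tiparp, an AHR-induced repressor of AHR, fell by 0.20. The classical targets Cyp1a1, Cyp1a2 and Ahrr differed by -0.10, -0.06 and -0.14 and did not pass the test, at levels of 4.92, 4.69 and 4.47 in WTR- that lie below the 30th percentile of the arrays.

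The genes of the ALDH1A family gave no call. Limma called 0 of 4, including Aldh1a7, the count at an unadjusted p under 0.05 was 0, and the plain t-test also called 0. Aldh1a1 read 5.21, 4.95 and 4.99 in WTR- and 5.07, 4.86 and 4.83 in MR13, and Aldh1a2 read 4.58, 4.60 and 4.60 and then 4.86, 4.48 and 4.64. Both genes overlapped between groups and lay among the dimmest 30% of genes, where background is a large part of the signal and a difference can be understated. Aldh1a3 read 6.35, 6.19 and 6.10 in WTR- and 6.47, 6.29 and 6.29 in MR13, also overlapping. Their differences were -0.13 (95% interval -0.33 to 0.07), 0.07 (-0.14 to 0.27) and 0.14 (-0.04 to 0.32), so the intervals leave out changes as large as that of Aldh3a1 on this signal scale. Aldh1a7 is a rodent paralog of Aldh1a1 of nearly the same sequence whose probes may read both. Its mean was 3.79 in WTR- and 3.95 in MR13, also among the dimmest 30% of genes. The difference was 0.16 (adjusted p = 0.222 by limma). It was called only without WTR- replicate 1, at 0.26 with an adjusted p of 0.0207, in a range of 0.0207 to 0.528 over its alternatives.

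Of 19 measured genes of retinoid metabolism, the pathway around the ALDH1A step, 3 rose and 5 fell, with a median of 0.07. The share called, 42.1%, was near the 37.6% of all genes, and without WTR- replicate 2 the counts were 5 and 5. Rdh10, the dehydrogenase that turns retinol into the retinal used by ALDH1A enzymes, fell by 1.80 from 11.65, 11.69 and 11.58 to 9.76, 9.93 and 9.81 (SE 0.06, adjusted p = 9.33e-08 by limma). Fabp5, a fatty acid and retinoic acid carrier, fell by 1.08. Cyp26b1, which breaks down retinoic acid, rose by 1.28 and Dhrs9, another retinol dehydrogenase, by 0.67. Of 7 retinoid receptors 3 rose and 1 fell, 57.1% called, with Rxra at 0.72 and Rara at 0.55 against Rxrb at -0.31, and the call of Rxrb was lost with the plain t-test. Of 12 retinoic acid target genes 4 rose and the other 8 did not pass, 33.3% called, and this list shares members with the metabolism list. Tgm2, which encodes transglutaminase 2, read 8.75, 8.60 and 8.52 and then 11.002, 11.20 and 11.06, a rise of 2.47 with no overlap (adjusted p = 5.43e-08). Rarb and Cyp26a1, chosen after their values were seen as standard retinoic acid targets, differed by 0.01 and 0.15 and were not called. Their mean levels of 4.99 and 4.96 in WTR- lay below the 30th percentile, where a difference can be understated.

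**Figure D4:**
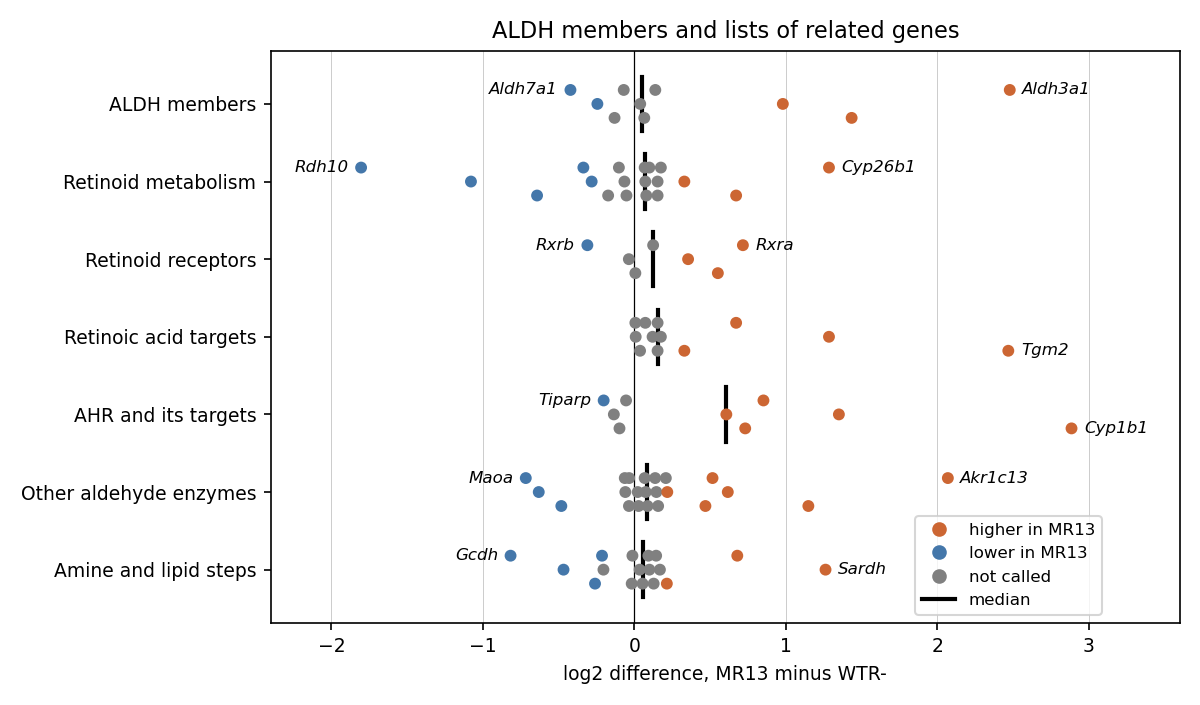
Log2 difference of MR13 minus WTR- for each measured gene of the lists around the aldehyde dehydrogenases, 1 point per gene, coloured by call, with a line at the list median. The AHR list, which includes the genes of the receptor and its partner, has the highest median, 0.61. The retinoid metabolism list spans -1.80 to 1.28.

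Both members that fell encode enzymes found in mitochondria. Aldh7a1, which oxidises the lysine breakdown product aminoadipic semialdehyde, read 10.54, 10.43 and 10.46 in WTR- and 10.02, 10.07 and 10.08 in MR13. The groups did not overlap, and the difference was -0.42 (SE 0.05, interval -0.54 to -0.30, adjusted p = 0.000237 by limma). Aldh2, the mitochondrial enzyme for acetaldehyde, read 11.67, 11.73 and 11.60 and then 11.32, 11.44 and 11.50. Its groups stayed apart by a narrow margin, with a difference of -0.24 (SE 0.06, interval -0.39 to -0.10, adjusted p = 0.0152). Without WTR- replicate 2 it was -0.21 with an adjusted p of 0.0613, and with the plain t-test it was -0.24 with an adjusted p of 0.0578, in a range of 0.000872 to 0.0613 over its alternatives.

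Aldh1b1, a mitochondrial relative of Aldh2, read 5.69, 5.96 and 5.90 in WTR- and 5.89, 5.82 and 5.96 in MR13. Aldh9a1, which makes the carnitine precursor gamma-butyrobetaine, read 10.83, 10.81 and 10.81 and then 10.67, 10.78 and 10.79. Aldh1b1 overlapped between groups, while all MR13 arrays lay narrowly below all WTR- arrays for Aldh9a1. Their differences of 0.04 (-0.14 to 0.22) and -0.07 (-0.19 to 0.05) did not pass the test, and the intervals allow a small change in either direction.

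Of the 11 other ALDH genes 2 rose, 4 fell and 5 did not pass, 54.55% called beside 37.6% of all genes. Aldh18a1, the mitochondrial synthase of the proline precursor pyrroline-5-carboxylate, fell by 1.42 from 10.97, 11.01 and 10.94 to 9.46, 9.60 and 9.62, or 2.67-fold (SE 0.06, adjusted p = 2.94e-07 by limma). Aldh1l2, the mitochondrial formyltetrahydrofolate dehydrogenase of the folate pathway that MTX inhibits, fell by 1.31 from 6.45, 6.55 and 6.88 to 5.26, 5.35 and 5.34 (adjusted p = 1.22e-05). Both genes were lower on every MR13 array than on any WTR- array. Aldh1l1, the cytosolic counterpart of Aldh1l2, differed by 0.11 and was not called.

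Aldh5a1, which clears the GABA product succinic semialdehyde, fell by 0.88 and Aldh4a1, which completes proline breakdown, fell by 0.31. The Aldh4a1 call was lost without WTR- replicate 1 (adjusted p = 0.0774), without WTR- replicate 3 (0.0636) and with the plain t-test (0.128), in a range of 0.0134 to 0.128 over its alternatives, and the difference was -0.20 without MR13 replicate 1. Aldh6a1, the methylmalonate semialdehyde dehydrogenase of valine breakdown, rose by 0.41 from 7.12, 7.11 and 7.11 to 7.43, 7.56 and 7.59. Aldh8a1 and Aldh16a1, which is thought to lack activity in mammals, both differed by 0.01 and were not called. When the family is grouped by site, a grouping made after the values were seen, 6 of 8 mitochondrial genes fell. Of the rest 1 rose and 1 did not pass, and the median of the 8 was -0.37. Among the 6, Aldh2 and Aldh4a1 lost their calls in the alternatives given above. Of all genes 20.6% fell and 17.0% rose. In bulk RNA a lower level can mean fewer expressing cells or less RNA per cell, and these cannot be told apart.

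Of 22 measured genes for other aldehyde and alcohol enzymes 6 rose and 3 fell, with a median of 0.08. The share called, 40.9%, was near the 37.6% of all genes. Akr1c13, an aldo-keto reductase of a family whose probes may be shared, rose by 2.07 and Aox1, an aldehyde oxidase, by 1.15. Maoa, which makes aldehydes from amines, fell by 0.72 and Cbr4, a carbonyl reductase, by 0.63. Of 17 amine and lipid genes 3 rose and 4 fell, 41.2% called and again near the share of all genes, among them Sardh, the sarcosine dehydrogenase, at 1.26, Smox, the spermine oxidase, at 0.68, Gcdh, an acyl-CoA dehydrogenase of lysine breakdown, at -0.82, and Sgpl1, which makes hexadecenal from sphingosine phosphate, at -0.47.

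Of 15 measured stem cell markers outside the family 3 rose and 3 fell, with a median of 0.02. The share called, 40%, was near the 37.6% of all genes. Itgb3, the integrin beta-3 chain, rose by 1.98 and the transcription factor gene Klf4 by 0.42, and Has2, a hyaluronan synthase, fell by 0.55 and the surface antigen gene Cd24a by 0.27. The Klf4 call was lost with the plain t-test. Ly6a, which encodes the surface antigen SCA1, was not analysed here.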

How the data were processed

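RNA of 6 arrays was hybridised to Affymetrix Mouse Gene 1.0 ST arrays. The authors deposited log2 values, made with affy and limma per the submitters' notes; versions, summarization and normalization are not given in the sources used here. Values ran from 2.42 to 14.4. Arrays have no read depth, and their number limits the precision. The table held 28350 probe sets, 21780 with 1 symbol, 1618 with several and 4952 unnamed. Per gene the probe set with the highest mean was kept (19933 genes, 82 without a RefSeq match in GRCm38.p6). Limma 3.58.1 in R 4.3.3 (lmFit, eBayes, two-sided, no covariate) was tested on simulated data. These had independent noise and far fewer changed genes than were called here, so they do not cover a change this broad. P-values were adjusted by Benjamini-Hochberg over all genes, called under 0.05. Members and lists were chosen with earlier results of these data known. Named were all ALDH genes and, per list, up to 2 called genes per direction with the largest non-overlapping differences. Alternatives were renormalization, median centring, dropping the dimmest 30%, mean or all probe sets, a trended robust prior, a replicate block, leaving out each array, and a plain t-test. Columns of other series numbered 0.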

Additional observations from a re-analysis of the deposited data

How the results depend on the processing

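The counts of called genes for the members, the other ALDH genes, the pathway lists and all genes stayed within 1.5 times the reported count in every alternative run, 140 in all. Between 4 and 5 members were called. Of the member differences 134 kept their direction and side of the threshold. Aldh2 lost its call in 2 alternatives, given above. The sign of 2 uncalled differences changed: with 1 array left out Aldh1a2 ranged from -0.037 (without MR13 replicate 1) to 0.16 and Aldh1b1 from -0.042 (without WTR- replicate 1) to 0.092. Aldh1a1 and Aldh1a2 were not tested where the dimmest genes were left out. The Aldh3a1 difference ranged from 2.44 to 2.53, Aldh3b1 from 1.34 to 1.504 and Aldh3a2 from 0.92 to 1.02. The replicate numbers were not used as pairs in the main fit. Deviations of same-numbered arrays from their group means correlated at 0.128, -0.0012 and 0.182. These values cannot show whether the samples were paired, as arrays of different numbers were not compared. With the replicate block 5 members, 6 other ALDH genes and 7442 of all genes were called, against 5, 6 and 7497. No detection calls were used, so differences of dim genes such as Aldh1a1 may be understated.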
